A study of Mus musculus with 6 samples.

Results

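The sites described here are places bound by YAP in mouse gastric tumors, away from gene ends, with no H3K27ac nearby. They are the summits that both tumor YAP libraries placed within 200 bp of each other on chromosomes 1 to 19 and X. Each lay over 1 kb from every start or end of a protein-coding gene and over 200 bp from every YAP summit of normal stomach. Each also lay over 1 kb from every H3K27ac summit of both tissues. This left 11547 sites of the 29468 found in both tumor libraries. H3K27ac and YAP summits chose them, so those positions are a description and not a test.

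YAP was profiled by chromatin immunoprecipitation sequencing in 2 tumor and 2 normal libraries, and H3K27ac in 1 tumor and 1 normal library. Tumor mice carried CluCreERT2, a tamoxifen-inducible Cre at the Clu locus, with R26rtTA and an inducible HA-Yap. Normal mice were wild type. The treatment in the labels, which is the same text for every library, was tamoxifen at 2 mg into the peritoneum for 5 days, followed by 14 days on food with doxycycline. All libraries came from gastric corpus epithelium released with EDTA, and the labels do not say whether the libraries of a group came from different animals. Recombination is limited to cells in which the Clu locus was active. Summit lists carry no expression values, so the labelled tissue could not be checked against its markers. YAP lists held 38227 and 53831 summits in tumor 1 and tumor 2, and 1574 and 2121 in normal 1 and normal 2. Those of H3K27ac held 66532 in tumor and 22386 in normal, and sequencing depth is unknown for all 6. The peak names contradict 2 labels: tumor 1 carries the word cre, as the normal H3K27ac library does, and normal 2 carries the words of the tumor H3K27ac library. When libraries were grouped by those words, only 10 such sites were found, so the set rests on the labels. That grouping matches tumor 2 with the 2121 summits of normal 2 and drops sites near the 38227 of tumor 1. The short list of normal 2 thus caps the number of sites, and that number cannot tell which grouping is right. How far list length and the overlap of positions each lower it was not tested.

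YAP is the transcriptional coactivator held in check by the Hippo kinases. It has no DNA-binding domain of its own and reaches DNA mainly through TEAD factors, often at distal enhancers that also hold AP-1 motifs. H3K27ac marks active promoters and enhancers, so a bound distal site without it lacks the usual sign of enhancer activity. CTCF is another DNA-binding factor, known for its role in chromatin loops.

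A small part of the sites can be shown with their sequence, because their midpoint fell inside a RefSeq promoter window of 300 bases, from 250 before to 50 after a transcript start. These starts are alternative starts within genes or starts of noncoding genes, since the ends of protein-coding genes were left out. Among sites on the chromosomes this table covers, 129 of 11158 (1.16%) lay in such a window, against 733 of 7492 (9.78%) distal sites with H3K27ac. Long noncoding RNA genes accounted for 97 of the 129 windows (75.2%) and for 211 of the 733 (28.8%). The 6 windows below are the 4 with the best-ranked sites, the best-ranked one that holds both a TEAD and an AP-1 motif, and that of Tbx3os2, chosen after its values were seen. They are printed 5′ to 3′ on the strand of the gene, from RefSeq build GRCm38.p6. Capitals mark a TEAD motif (CATTCC), an AP-1 motif (TGANTCA) or the core of the CTCF motif (CC, any 3 bases, AG, any 2 bases, GGC) on either strand.
Gm41504 (chr16:94713858-94714157, - strand): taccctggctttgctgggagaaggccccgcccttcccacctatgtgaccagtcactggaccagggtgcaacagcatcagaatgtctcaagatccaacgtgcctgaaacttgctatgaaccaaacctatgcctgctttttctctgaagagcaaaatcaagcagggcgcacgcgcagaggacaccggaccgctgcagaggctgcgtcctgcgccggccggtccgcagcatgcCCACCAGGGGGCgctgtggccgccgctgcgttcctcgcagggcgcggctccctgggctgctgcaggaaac
Gm30284 (chr17:86444938-86445237, - strand): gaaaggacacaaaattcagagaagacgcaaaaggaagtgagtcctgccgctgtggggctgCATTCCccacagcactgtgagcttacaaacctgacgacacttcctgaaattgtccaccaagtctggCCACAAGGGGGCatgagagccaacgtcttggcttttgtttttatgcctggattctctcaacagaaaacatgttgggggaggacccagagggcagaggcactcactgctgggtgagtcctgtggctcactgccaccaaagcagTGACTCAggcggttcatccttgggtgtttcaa
Tbx3os2 (chr5:119691169-119691468, - strand): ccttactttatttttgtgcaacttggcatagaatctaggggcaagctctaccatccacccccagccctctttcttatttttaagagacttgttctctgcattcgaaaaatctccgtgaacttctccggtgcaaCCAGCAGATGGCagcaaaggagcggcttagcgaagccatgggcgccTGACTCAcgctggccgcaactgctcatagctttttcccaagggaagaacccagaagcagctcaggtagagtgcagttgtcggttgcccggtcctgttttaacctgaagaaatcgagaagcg
Junos (chr4:95143815-95144114, + strand): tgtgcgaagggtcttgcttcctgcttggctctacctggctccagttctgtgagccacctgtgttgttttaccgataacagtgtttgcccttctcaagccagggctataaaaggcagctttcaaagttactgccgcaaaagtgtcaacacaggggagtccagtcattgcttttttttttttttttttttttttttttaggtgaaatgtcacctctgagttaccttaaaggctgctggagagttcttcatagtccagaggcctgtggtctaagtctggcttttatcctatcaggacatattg
1810019D21Rik (chr8:106135150-106135449, + strand): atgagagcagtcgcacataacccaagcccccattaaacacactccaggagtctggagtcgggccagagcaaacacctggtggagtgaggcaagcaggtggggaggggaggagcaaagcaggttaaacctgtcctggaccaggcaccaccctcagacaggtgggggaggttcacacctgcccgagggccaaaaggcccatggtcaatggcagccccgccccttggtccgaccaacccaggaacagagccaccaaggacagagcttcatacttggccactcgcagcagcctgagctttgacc
Gm39056 (chr7:99500214-99500513, + strand): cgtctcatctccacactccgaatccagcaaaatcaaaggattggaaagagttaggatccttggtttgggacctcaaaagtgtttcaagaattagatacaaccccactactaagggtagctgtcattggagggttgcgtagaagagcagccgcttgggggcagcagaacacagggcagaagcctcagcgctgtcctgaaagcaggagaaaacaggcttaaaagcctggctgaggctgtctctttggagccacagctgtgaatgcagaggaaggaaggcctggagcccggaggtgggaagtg

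The windows of Gm41504, Gm30284 and Tbx3os2 each held 1 CTCF core, with an AP-1 motif in the last 2 of them, and those of Junos, 1810019D21Rik and Gm39056 held none of the 3 motifs. At Gm41504, a noncoding gene 18361 bp outside Dyrk1a, the site lay 27 bp downstream of the start and scored 19.4 in tumor 1 and 34.1 in tumor 2. That of Gm30284 lay inside Prkce, a protein kinase C gene, 212854 bp from its nearer end, and scored 13.0 and 23.2. The site at Tbx3os2, 6586 bp outside the developmental regulator gene Tbx3, scored 16.4 and 23.2. It was 4089 bp from tumor H3K27ac and 425360 bp from normal H3K27ac. At Junos, which shares its name with the AP-1 gene Jun, the site scored 26.2 and 39.8 and lay 9921 bp from tumor H3K27ac and 9870 bp from normal H3K27ac.

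Over all such windows, the CTCF core was present in 31 of 129 (24.0%) at sites without H3K27ac, in 112 of 733 (15.3%) at distal sites with it, and in 8.67% of all 32585 listed windows. It lay within 50 bp of the site in 22 of the 129 windows (17.1%), against 48 of the 733 (6.55%). This 12-letter motif was searched after the sequences had been seen. Of 2 shorter words of the CTCF motif, AGGTGGC was in 12.4% against 8.59% of windows and in 6.19% of all, while AGGGGGC was in 10.1% against 19.6% and in 10.7% of all, and both words can overlap the core.

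TEAD motifs were near their background, with 22 of 129 windows (17.1%) at sites without H3K27ac, 97 of 733 (13.2%) at sites with it, and 14.6% of all windows. AP-1 motifs stood in 18 windows (14.0%), against 54 (7.37%) at sites with H3K27ac, and in 7.85% of all. The GATA word AGATAA was in 14.0% against 5.32%, and in 11.2% of all windows. The FOX word TGTTTAC was in 5.43% against 3.41%, and in 3.67% of all. The ETS word CAGGAAG was in 18.6% against 12.4%, and in 13.4% of all. Base composition moved with these shares: the median GC content was 50.7% at sites without H3K27ac, 62.3% at sites with it and 53.0% over all windows. Its part in the motif shares was not tested, and 129 of 11547 sites say little of the rest.

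Of the 19279 distal tumor-only YAP sites, 11547 had no H3K27ac summit within 1 kb (59.9%, Wilson 95% interval 59.2 to 60.6, which covers counting error only). H3K27ac was present in both tissues at 3725 of the others, in tumor alone at 2258 and in normal alone at 1749. Among the 9590 YAP sites of both tumor libraries within 1 kb of a gene end, only 558 lacked the mark (5.82%), and over all 29468 sites 12149 did (41.2%). Unlike the 19279, the 9590 and the 29468 include sites within 200 bp of a normal YAP summit. Windows of 1 kb around H3K27ac summits covered 5.16% of the genome. In the tumor libraries taken one at a time, 15434 of 25817 distal summits of tumor 1 (59.8%) and 26724 of 39952 of tumor 2 (66.9%) lacked H3K27ac, a mean of 63.3 ± 5.03% (SD, n = 2). Summits found in tumor 2 alone lacked it most often, at 73.4% (72.8 to 74.0), while those found in tumor 1 alone did so at 59.4% (58.2 to 60.6).

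The nearest H3K27ac was usually several kb away and usually a tumor summit. The median distance was 9105 bp to the nearest summit of either library, 10223 bp to the nearest tumor summit and 23410 bp to the nearest normal summit. A tumor summit was the nearer one for 8530 sites (73.9%), in lists of which the tumor one is longer. Distances of over 1 to 2 kb were found for 1150 sites (9.96%), over 2 to 5 kb for 2344 (20.3%), over 5 to 10 kb for 2605 (22.6%), over 10 to 50 kb for 4650 (40.3%) and over 50 kb for 798 (6.91%). Summit lists hold no peak width, so a site just over 1 kb from a summit may lie inside a broad H3K27ac peak. Just inside the rule, the 327 sites 1001 to 1250 bp from H3K27ac had median scores of 6.24 in tumor 1 and 10.8 in tumor 2. The 448 distal sites 751 to 1000 bp from H3K27ac had medians of 6.36 and 10.6.

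**Figure D1:**
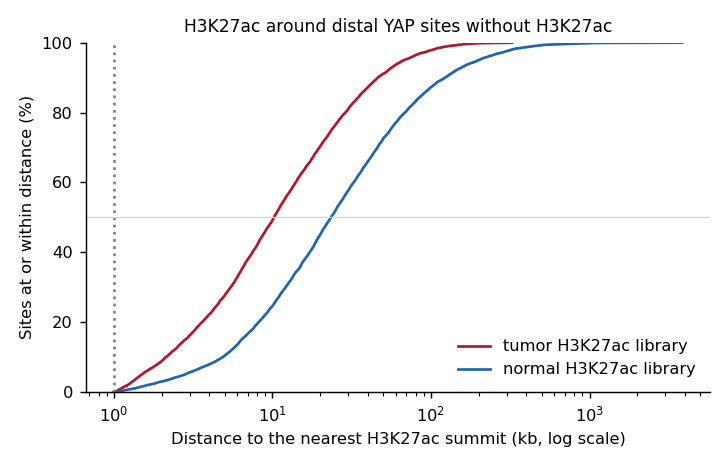
Cumulative share of the 11547 sites (%) against distance to the nearest H3K27ac summit (kb, log scale) of the tumor and the normal library. The dotted line marks the 1 kb minimum set by the rule, and the curves cross the grey line for the median at 10223 bp for tumor and 23410 bp for normal.

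The 5 sites farthest from H3K27ac lay 153577 to 885303 bp from the nearest gene end. The farthest, on chromosome 1 at position 41810465 inside the noncoding gene Gm29260, was 307915 bp from tumor H3K27ac and 419923 bp from normal H3K27ac. It scored 4.16 in tumor 1 and 8.88 in tumor 2. The others lay on chromosome 1 at 77081793 and 77213605, on chromosome 6 at 98525437 and on chromosome 3 at 143379397. Across the distance bands, median scores ran only between 5.83 and 6.56 in tumor 1 and between 9.74 and 10.4 in tumor 2.

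YAP scores were lower at these sites than at distal sites with H3K27ac, in both tumor libraries. The score is the authors' own −log10 significance of each summit, and it compares summits within 1 list only. In tumor 1 the median was 6.18 at sites without H3K27ac and 8.0 at distal sites with it, a difference of -1.82. In tumor 2 the medians were 10.04 and 13.3, a difference of -3.27. The mean difference was -2.55 ± 1.03 (SD, n = 2 libraries), and p was 0.5 in an exact two-sided sign-flip permutation test, which cannot go lower with 2 libraries.

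The classes with H3K27ac differed among themselves. Sites with it in both tissues had the highest medians, 10.1 in tumor 1 and 16.9 in tumor 2. Sites with H3K27ac in tumor alone had medians of 6.36 and 10.3, close to those of the sites without the mark. Those with it in normal alone had 7.36 and 12.0. The best-scored decile of each whole YAP list held 203 of the sites without H3K27ac in tumor 1 (1.76%) and 375 in tumor 2 (3.25%). It held 520 (14.0%) and 768 (20.6%) of the distal sites with H3K27ac in both tissues. The size of this difference moved when sites near listed transcript starts were left out. Without those within 1 kb of a start, an alternative added after seeing the values, the mean difference was -1.79. That alternative also left out all of chromosome 18, for which no starts were listed.

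**Figure D2:**
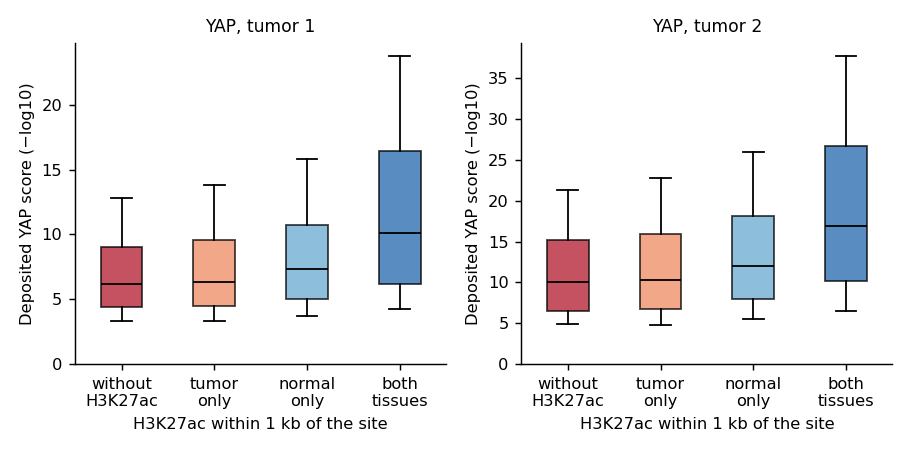
Deposited YAP score (−log10, linear axis) in tumor 1 and tumor 2 for the 4 classes of distal sites by H3K27ac within 1 kb. Boxes span the quartiles with the median as a line, and whiskers run between the 10th and 90th percentiles. Medians are 6.18 and 10.04 at sites without H3K27ac, and 10.1 and 16.9 at sites with H3K27ac in both tissues.

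Ordered by score, the share of distal sites without H3K27ac was lowest among the best-scored sites in both libraries. In the best decile of distal sites it was 30.7% (28.6 to 32.7) in tumor 1 and 30.4% (28.4 to 32.5) in tumor 2. The second decile had 48.1% and 49.0%, the fifth 61.9% and 62.1%, and the last 71.7% (69.6 to 73.6) and 70.0% (67.9 to 72.0). The share with H3K27ac in tumor alone ran the other way from that with H3K27ac in both tissues. It was 7.68% in the best and 13.6% in the last decile of tumor 1, where the share with H3K27ac in both was 52.4% and 8.04%.

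**Figure D3:**
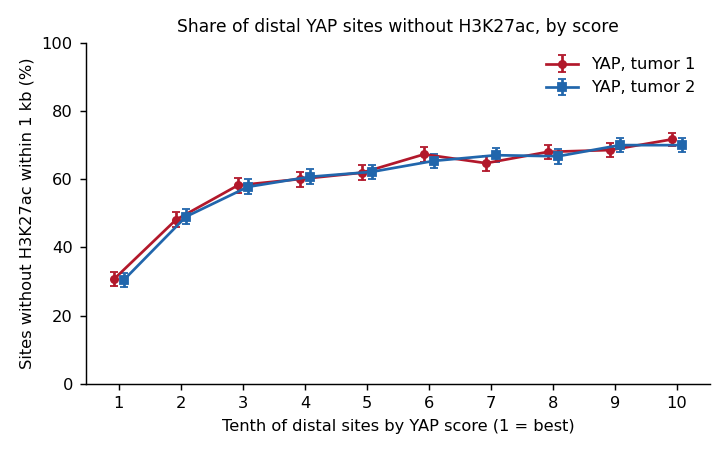
Share of distal sites without H3K27ac within 1 kb (%) in deciles of the 19279 distal sites ordered by YAP score, best first, for tumor 1 and tumor 2. Bars are Wilson 95% intervals for counting error. Both curves are lowest in the best decile, at 30.7% in tumor 1 and 30.4% in tumor 2, and end at 71.7% in tumor 1 and 70.0% in tumor 2.

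The rule limited the offset between the summits of the 2 libraries to 200 bp. The median offset was 50 bp, and 5822 sites (50.4%) were within 50 bp, against a median offset of 57 bp at distal sites with H3K27ac. Scores in the 2 libraries correlated across these 11547 sites with a Spearman rho of 0.54, against 0.74 across the 7732 distal sites with H3K27ac. Sites are not independent replicates, and the narrower range of scores at sites without H3K27ac moves with the lower rho.

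The best-ranked sites include a stretch of chromosome 1 that needs to be set apart. Sites there at 24615066, 24613660, 24615927 and 24612500 ranked 54, 174, 295 and 328 or better in both libraries. The first scored 121 in tumor 1 and 128 in tumor 2. Another site at 24614293 scored 49.2 in tumor 1 and 5.61 in tumor 2. All 5 lay outside Col19a1, a collagen gene, 24578 to 28005 bp from its end. The site at 24612500 was inside the pseudogene Gm10222, that at 24614293 inside the pseudogene Gm10925 and that at 24613660 between them, while those at 24615066 and 24615927 lay past Gm10925 in no listed gene. These pseudogenes are known as nuclear copies of mitochondrial sequence. The mitochondrial chromosome held 12 and 13 summits in tumor 1 and tumor 2, against 1 and 0 in normal 1 and normal 2, and 0 in both H3K27ac libraries. The part of mitochondrial reads in the 5 sites was not tested, and without them 11542 sites remained.

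Among the other best-ranked sites, that on chromosome 6 at 128803133 inside the noncoding gene Gm34755 scored 71.0 in tumor 1 and 69.3 in tumor 2. It lay 10573 bp outside Klrb1b, a natural killer cell receptor gene, and 3433 bp from tumor H3K27ac. The site inside Panx1, a membrane channel gene, on chromosome 9 at 15035696 scored 60.9 and 68.0. At Dgat2, which serves triglyceride synthesis, the site lay 2146 bp outside the gene and scored 45.6 and 74.6. The site 20109 bp outside Kcnk9, a potassium channel gene, scored 62.6 and 63.8 and lay 1133 bp from tumor H3K27ac but 241035 bp from normal H3K27ac. At Snx19, a sorting nexin gene, the site scored 41.7 and 62.5 and its nearest H3K27ac was 53442 bp away in tumor and 53448 bp in normal. At Eif4b, a translation initiation factor gene, the summits of both libraries fell on the same base, and scored 41.1 and 97.4.

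The next-ranked sites lay inside Armc9, a cilium gene, and outside Nemp1, Rfng, Pllp, Glrx3, Krt80, Mmp2 and Cdh3, with 1 on chromosome 11 at 42939448 that had no gene end within 50 kb. Rfng encodes a glycosyltransferase of Notch receptors and Cdh3 encodes P-cadherin. At Cdh3 the site lay 4409 bp outside the gene, scored 39.5 in tumor 1 and 52.4 in tumor 2, and was 2666 bp from tumor H3K27ac and 9663 bp from normal H3K27ac. Of the 20 best-ranked sites, 3 lay inside a protein-coding gene, those in Panx1, Armc9 and Mid1.

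Fewer of the sites without H3K27ac lay inside genes than of the other distal sites. Of the 11547, 5552 were inside a protein-coding gene (48.1%, 47.2 to 49.0), against 58.1% (57.0 to 59.2) of the distal sites with H3K27ac. Such genes cover 39.1% of the genome. In each library's own distal summits the difference was -7.73 points in tumor 1 and -9.06 in tumor 2, a mean of -8.40 ± 0.94 (SD, n = 2 libraries), and the exact sign-flip permutation p was 0.5, the smallest possible. Among sites over 5 kb from gene ends the difference in matched sites was -3.74 points, against -9.98 in all. It was -4.84 points without sites near a listed transcript start and without chromosome 18.

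The containing genes were long, with a median of 98122 bp over the sites, against 64380 bp for distal sites with H3K27ac, and the median protein-coding gene had 17329 bp. The median distance to a gene end was 18539 bp, against 13629 bp. No gene end lay within 50 kb for 1521 sites outside genes (13.2%), against 9.42% of distal sites with H3K27ac. In these positions the sites were closest to those with H3K27ac in normal alone, of which 49.2% were inside a gene, at a median of 21392 bp from a gene end.

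Listed transcript starts separated the classes most. Of the 11158 sites off chromosome 18, 319 lay within 1 kb of one (2.86%, 2.57 to 3.18), against 32.7% (31.1 to 34.2) of distal sites with H3K27ac in both tissues. The share was 11.1% for H3K27ac in tumor alone and 5.91% for H3K27ac in normal alone. One of the 319 lay inside Cdkn1a, the gene of the cell cycle inhibitor p21, 16 bp from a listed start. It scored 11.02 in tumor 1 and 14.5 in tumor 2, and was 1069 bp from tumor H3K27ac and 1133 bp from normal H3K27ac, close to the limit of the rule. It was chosen after its values were seen.

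The genes next to the sites often carried H3K27ac at their own ends. Of the 10026 sites with an assigned gene (the gene that contains the site, or else that with the nearest end within 50 kb), 7782 had a gene with tumor H3K27ac within 1 kb of an end (77.6%). Normal H3K27ac was at an end for 62.0%, and neither for 20.6%. For distal sites with H3K27ac these shares were 74.1%, 57.9% and 23.5%, and over all protein-coding genes 65.2%, 48.6% and 33.1%. By class, tumor H3K27ac was at an end for 79.2% with the mark in tumor alone, 77.3% in normal alone and 69.7% in both. In the same order, normal H3K27ac was at an end for 54.5%, 68.3% and 55.5%, and neither for 19.6%, 19.9% and 27.4%. A tumor YAP site lay at an end of the gene for 59.3% of the sites, against 55.0% for distal sites with H3K27ac. By class the latter share was 55.2% with the mark in tumor alone, 63.9% in normal alone and 51.0% in both. Over all genes the share was 47.1%. Shares of sites count a gene anew for each site assigned to it, while shares over all genes weigh every gene equally. The values over all genes are thus in another unit, and they were not matched to the sites for gene length.

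**Figure D4:**
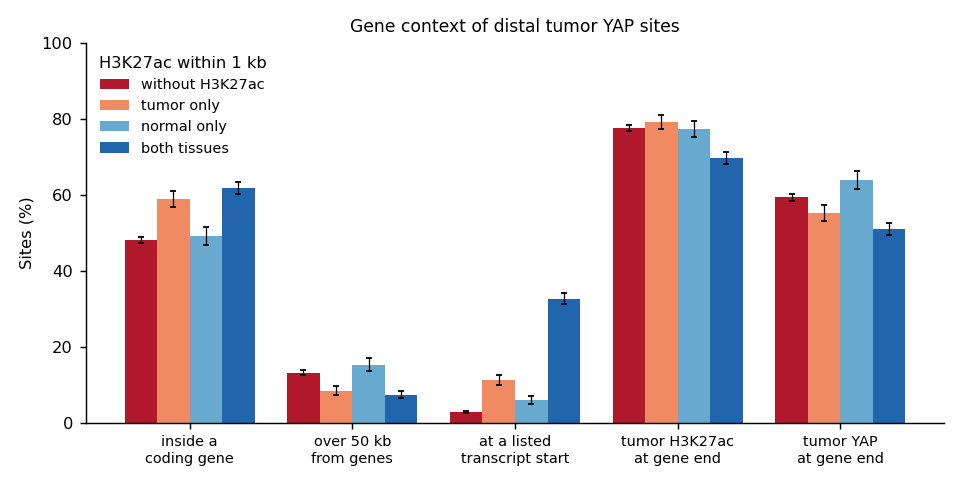
Share of distal tumor YAP sites (%) with each of 5 features, for the 4 classes by H3K27ac within 1 kb, with Wilson 95% intervals for counting error. The transcript start bars leave out chromosome 18, and the last 2 groups of bars count sites with an assigned gene. At listed transcript starts the bars are 2.86% for sites without H3K27ac and 32.7% for those with H3K27ac in both tissues.

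Most of the sites stood apart from other sites without H3K27ac. Of the 11547, 9357 had no other such site within 10 kb, a distance chosen after seeing the data, while 931 groups held 2 sites, 93 held 3, 11 held 4 and 1 held 5. The median distance to another site without H3K27ac was 34197 bp, and to a YAP site with H3K27ac 26284 bp. The group of 5 was the stretch outside Col19a1. A group of 4 spanned 16800 bp around Tff1, the pit cell trefoil factor gene, with best scores of 10.8 in tumor 1 and 12.5 in tumor 2. Groups of 4 also spanned 18578 bp at Itpr1, a calcium release channel gene, with best scores of 13.6 and 26.0, and 21306 bp at Usp6nl, with 13.8 and 29.6.

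At least 1 site was assigned to 6115 of the 21631 protein-coding genes (28.3%). Of these genes 3904 had 1 site, 1301 had 2, 713 had 3 or 4 and 197 had 5 or more. The share of genes with a site moved with gene length, and was 4.90% in the shortest decile of genes and 59.5% in the longest. Pde4d, a cyclic AMP phosphodiesterase gene of 1301793 bp, had the most, with 13 sites, all inside it. Msi2, which encodes an RNA-binding stem cell regulator, had 11. Shank2, a scaffold gene, and Slc39a11, a zinc transporter gene, also had 11 each, and Elmo1, which serves Rac activation, and Prkce had 10 each. Kalrn, Macrod2, Mecom and Nav2 had 9 each, as did 3 further genes not named. Mecom, which encodes a zinc finger transcription factor, also had 12 distal sites with H3K27ac, while Prkce and Macrod2 had 0. At a YAP score of at least 5 in both libraries, Pde4d kept 10 sites, Elmo1 and Prkce 8 each, and Msi2 and Slc39a11 7 each. Kalrn then kept 6, Shank2 and Nav2 5 each, Macrod2 3 and Mecom 1. The sites of each gene share its length and surroundings and are not replicates.

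Of the 28 YAP and TAZ target genes, 20 had a site without H3K27ac (71.4%), with 35 sites in all. Their median length was 59483.5 bp, and 48.1% of all genes in the decile of gene length that holds this value had a site. For each list below, the share of all genes in the decile of its median length is given in the same way, which matches the list's length only roughly. Tead1, one of the TEAD factor genes through which YAP reaches DNA, had 6, of which 4 were inside it, beside 2 distal sites with H3K27ac and 2 at its ends. Rbms3 had 5, all inside, and its best site on chromosome 9 at 116873294 scored 24.2 in tumor 1 and 24.8 in tumor 2, with the nearest H3K27ac 115130 bp away. Ccn1, Crim1, Myof, Ptpn14, Wwc1 and Nuak2 had 2 each. The best site of Wwc1, an upstream Hippo regulator, scored 26.1 and 28.4 inside the gene, and that of F3, the tissue factor gene, scored 18.1 and 30.2 at 10068 bp outside it.

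Amotl2, an angiomotin family gene whose product holds YAP at cell junctions, had 1 site without H3K27ac and 6 distal sites with it. Wls, a Wnt secretion gene, had 1, which scored 20.8 in tumor 1 and 33.3 in tumor 2 at 44625 bp from H3K27ac. The remaining genes with 1 each were Amotl1, Gadd45a, Lats2, Nt5e, Ddah1, Dock5, Igfbp3, Arhgef17 and Asap1. Those with none were Ccn2, Ankrd1, Ajuba, Axl, Fjx1, Frmd6, Tgfb2 and Foxf2.

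Of the Hippo pathway genes, 16 of 29 (55.2%) had a site, near the 48.1% of all genes at their median length of 81412 bp. Vgll4, whose product competes with YAP for TEAD, had 3 inside it, the best with scores of 17.7 in tumor 1 and 31.1 in tumor 2. Wwc2 and Map4k4 also had 3 each. Among AP-1 genes 6 of 14 had a site (42.9%), against 18.7% of all genes at their median length of 11494 bp. All 14 had some YAP site of both tumor libraries, of any class. So did 13076 of the 21631 protein-coding genes, and 6115 of these had a site without H3K27ac. Fos had 3 sites without H3K27ac, 5 distal sites with it and 1 at its ends, and Jdp2, Atf7 and Atf3 had 1 site each without it.

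Genes of the gastric cell types were counted in the same way. Of the genes listed for pit cells, the cells that make surface mucus, 9 of 13 had one (69.2%). The share was 14.6% of all genes at the list's median length of 6130 bp. Foxq1, a regulator of surface mucin, had 4, the best at 19063 bp outside the gene with scores of 31.4 in tumor 1 and 37.4 in tumor 2 and H3K27ac 1615 bp away. Tff1 had 4 and Ctse and Gkn1 had 2 each. Of the genes listed for parietal cells, the cells that secrete acid, 13 of 20 had one (65.0%). The share was 33.6% of all genes at the list's median length of 36158.5 bp. Slc9a4, a sodium-proton exchanger gene, had 4, and Ezr, Slc26a9 and Esrrg had 3 each. Of the genes listed for chief cells, the cells that make digestive enzymes, 4 of 14 had one (28.6%). This was near the 23.3% of all genes at the list's median length of 13137.5 bp. Sgk1 had 4 sites, Agr3 had 2, and Xbp1 and Mapk4 had 1 each. Of the metaplasia markers 12 of 19 had one (63.2%), against 23.3% of all genes at their median length of 17192 bp. Cd44, a hyaluronan receptor gene, had 4, Anxa1 and Dmbt1 had 2 each and Ly6a had 1.

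Polarity, junction and cytoskeleton genes had the highest share, 24 of 26 (92.3%), with 68 sites, against 59.5% of all genes at their median length of 212115.5 bp. Lmo7 had 7, all inside it, the best with scores of 8.32 in tumor 1 and 31.9 in tumor 2. Arhgef28 and Tns1 had 6 each, and Pard3, a polarity scaffold gene, had 5. Of the neuronal genes, with a median length of 1448316 bp, 7 of 19 had a site (36.8%), against the same 59.5% of all genes. Those with most were Macrod2, Cdh13 with 5, Rbfox3 with 4 and Ptprd with 3, and the best site of Rbfox3 scored 32.5 in tumor 1 and 43.1 in tumor 2.

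Integrin and matrix genes had 10 of 22 (45.5%), near the 48.1% at their median length of 73508 bp, with 4 each at Itgb6 and Itgb5, 3 at Lama3 and the 5 of the stretch outside Col19a1. Stromal, muscle and endothelial genes had 7 of 18 (38.9%), near the 39.6% at their median length of 38416.5 bp, with Pecam1, Myh11, Pdgfra and Pdgfrb among them. Endocrine and tuft cell genes had 4 of 18 (22.2%), Neurod1, Pax4, Pou2f3 and Sst, near the 18.7% at their median length of 10753 bp. Immune genes had 4 of 20 (20%), Cd3e, S100a9, Spi1 and Itgam, with 1 site each, near the 18.7% at their median length of 7752.5 bp. Lists differ in gene length as well as in kind. They also differ in the genes with any YAP site of both tumor libraries. These were 23 of 28 YAP and TAZ targets, 25 of 29 Hippo genes and 25 of 26 polarity genes. Pit cell genes had 11 of 13, parietal 15 of 20, chief 11 of 14 and metaplasia 17 of 19. Integrin genes had 18 of 22, neuronal 9 of 19, immune 4 of 20, and stromal and endocrine lists 8 of 18 each. The shares above do not separate sites without H3K27ac from YAP sites of any kind, and no test was made between lists.

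**Figure D5:**
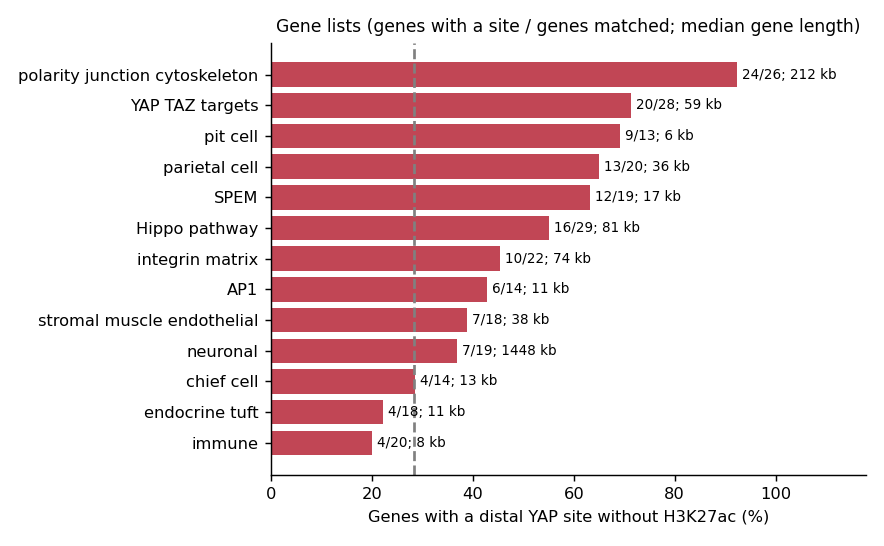
Share of the genes of each list (%) with at least 1 distal YAP site without H3K27ac. Labels give genes with a site over genes matched and the median gene length, and the dashed line marks the 28.3% over all protein-coding genes. Polarity, junction and cytoskeleton genes have 24 of 26 and immune genes 4 of 20.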

How the data were processed

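Each of the 6 libraries was represented by 1 deposited list of summits, 1 bp wide and called per library. Bowtie2, MACS2 and GRCm38 (mm10) are named in the submitters' processing notes, without versions. For calling thresholds or a control library, nothing was given in the sources used. The deposited score is on a −log10 scale, of a p- or q-value (which one is not stated), as read from the MACS2 summit format and the range of the values, and was compared only within its own list.

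Sites were matched as mutual nearest summits and placed at the midpoint. Genes, transcript starts and sequences came from RefSeq tables of GRCm38.p6, which give gene starts and ends but no exons. The software was scipy 1.17.1, pandas 2.3.3, numpy 2.4.6 and matplotlib 3.10.9 under Python 3.11.15. The selection was tested on simulated lists. The members and gene lists were chosen with earlier results of these data known. Named were the 20 best-ranked sites, by the worse rank in the tumor lists, the 5 farthest from H3K27ac, the 10 genes with most sites, all YAP and TAZ targets and up to 4 genes of each other list. No genome sequence was used, so the planned motif counts in windows centred on every site were replaced by RefSeq promoter windows. With 2 libraries the sign-flip p is 0.5 whenever both differ in the same direction, whatever the size of the differences. The SD gives the spread between 2 libraries, which may be technical.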

Additional observations from a re-analysis of the deposited data

Results flagged for a closer look

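Summits outside chromosomes 1 to 19 and X entered no comparison. They numbered 129 and 179 in YAP tumor 1 and tumor 2, a mean of 154, against 111 and 63 in normal 1 and normal 2, a mean of 87. As a share of each list the order was the opposite, 0.336% and 0.331% in tumor 1 and tumor 2 against 6.59% and 2.88% in normal 1 and normal 2.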

How the results depend on the processing

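Across 18 alternatives, the lower YAP score of sites without H3K27ac kept its direction in all 18 (difference -3.39 to -1.15), as did their lower share inside genes (-12.4 to -3.74 points). The score difference of -1.15 came from the grouping by peak-name words and rests on 10 sites. Those of tumor 1 alone (-1.20) and tumor 2 alone (-2.19) are single values, and the rest are means of 2 libraries. The number of sites stayed within 1.5 times the main count in 15. It was 6981 at a YAP score of at least 5 in both libraries and 10 of 106 distal sites when the YAP libraries were assigned by their peak-name words, where the share without H3K27ac was 9.43%. Leaving out 1 YAP library at a time gave 11555 to 26724 sites and a share of 59.3 to 66.9%; the high values are those of tumor 2 alone, and with tumor 1 alone there were 15434 sites. The share was 65.8% with H3K27ac within 500 bp, 53.9% within 2 kb and 41.8% within 5 kb. It was 69.0% with the tumor H3K27ac list alone and 68.9% with that list shortened to the length of the normal one. Counts at the 10 genes with most sites stayed within 1.5 times in 148 of 180 cases. The cause of these shifts was not tested, beyond the fewer or more summits each setting uses. Without the chromosome 1 stretch and without sites near listed transcript starts, both chosen after seeing the data, 11542 and 10839 sites were left. The second setting also left out chromosome 18, for which no starts were listed and which held 389 of the sites. No paired analysis was possible because no test set tumor against normal libraries, the groups that share replicate numbers; the differences between classes of sites were already taken within each tumor library. Depth is unknown and limits which H3K27ac summits could be called, so absence of a summit is not absence of the mark.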

Other observations

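Chromosome X held 113 sites without H3K27ac, or 0.66 per Mb, against 3.67 per Mb or more on each autosome. It also had the lowest share of distal sites without the mark, 45.9% of 246, against 55.1 to 65.4% on the autosomes.

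Of 1005 listed microRNA hairpins, 15 had a site without H3K27ac within 1 kb and 35 had a distal site with H3K27ac. A site on chromosome 6 at 31062051 lay 609 bp from Mir29a and 972 bp from Mir29b-1, with scores of 6.62 in tumor 1 and 11.7 in tumor 2 and H3K27ac 7487 bp away. These microRNAs, known for targeting collagen transcripts, share the seed (bases 2 to 8, in capitals, from RefSeq build GRCm38.p6, minus strand).
mmu-miR-29a-3p: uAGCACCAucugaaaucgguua
mmu-miR-29b-3p: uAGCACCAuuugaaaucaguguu

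Sites inside a hairpin were found at Mir3097 on chromosome 5 and Mir6715 on chromosome 19. The site at Mir3097 scored 2.89 in tumor 1 and 11.5 in tumor 2, and that at Mir6715 scored 7.64 in tumor 1 and 5.96 in tumor 2.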
